A study of Mus musculus with 16 samples.

Results

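The 8 genes here, measured in sorted CD4+ T cells of worm-infected mice, were 7 chemokine ligands, Cxcl2, Cxcl10, Ccl1, Ccl3, Ccl4, Ccl5 and Xcl1, and the growth factor gene Csf1. They are 8 of the 31053 genes in the lung and mesenteric lymph node (MLN) tables and of the 32285 genes in a further table of lymph node cells. The set was selected on its unique molecular identifiers (UMIs, counts of single captured RNA molecules) in the same cells, so its levels per library, organ and gate are given as a description without a test. Tests are given for the other genes of the cells in which each member was detected, which the selection of members did not use. The gene lists and the tests were, however, chosen with earlier results of these data known. Where another member is among those genes, its difference or call is a description only.

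Chemokines are small secreted proteins that draw leukocytes along a gradient through G protein-coupled receptors on the responding cell. Cxcl2 attracts neutrophils through Cxcr2, Cxcl10 acts through Cxcr3, Ccl1 is the ligand of Ccr8, Ccl3 and Ccl4 are inflammatory chemokines of which Ccl3 binds Ccr1, Ccl5 binds Ccr1 and Ccr3, and Xcl1 attracts dendritic cells that bear Xcr1. Csf1 is no chemokine but the growth factor on which most macrophages depend, through Csf1r. Th2 cells are best known for Il4, Il5 and Il13, and in the lung after helminth infection they act beside macrophages, eosinophils and basophils that carry several of these receptors.

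The mice carried an IL-4eGFP reporter (4get, C57BL/6), in which green fluorescent protein follows activity of the Il4 locus; it also marks basophils, eosinophils and mast cells. All groups were infected with 500 larvae of Nippostrongylus brasiliensis, given under the skin, and analysed 10 days later; no uninfected group was analysed here. In a first run, CD4+IL-4eGFP+ cells of lung and MLN were sorted from 2 mice aged 13 weeks and sequenced with their T-cell receptors (TCRs), and lung 1 and MLN 1 come from the same animal, as do lung 2 and MLN 2. In a second run, mediastinal lymph node (medLN) and MLN cells of 2 other mice aged 10 weeks were marked with hashtag antibodies and loaded as 1 IL-4eGFP+ and 1 IL-4eGFP- library, so that gate and library cannot be told apart. The lung was perfused but still held some intravascular cells, and few lung cells remained for mouse 2.

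After quality filters, 1082, 416, 2462 and 754 cells with a productive TCR alpha and beta chain remained in lung 1, lung 2, MLN 1 and MLN 2, and 1992 to 2249 cells in each of the 8 samples of the second run. Total counts per sample ranged from 2798232 to 14512767 UMIs in the first run and from 7546083 to 10636927 in the second. Median UMIs per cell were 6910 and 5765.5 in the lung samples, 4980 and 4971 in the MLN samples, and 3165.5 to 3666.5 in the node samples of the second run. Between 0 and 10 barcodes were shared by pairs of first-run libraries and 113 by the 2 gates. Levels are given as CPM, the UMIs of a gene divided by all UMIs of the sample and scaled to one common total, and as the share of its cells with at least 1 UMI, with exact Clopper-Pearson 95% intervals that cover counting error only. In summed samples, fewer producing cells and less RNA per producing cell lower the CPM alike.

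On mm10, Cxcl2 (ENSMUSG00000058427) lies at chr5:90903871-90905938 on the plus strand and Cxcl10 (ENSMUSG00000034855) at chr5:92346638-92348889 on the minus strand, where it overlaps the plus-strand gene Art3. The CC chemokine genes lie on chromosome 11: Ccl1 (ENSMUSG00000020702) at chr11:82176657-82305690 on the minus strand, Ccl5 (ENSMUSG00000035042) at chr11:83525778-83530518 on the minus strand, Ccl3 (ENSMUSG00000000982) at chr11:83647844-83649355 on the minus strand and Ccl4 (ENSMUSG00000018930) at chr11:83662584-83664683 on the plus strand. Xcl1 (ENSMUSG00000026573) lies at chr1:164931644-164935527 on the minus strand, overlapping the plus-strand gene Gm20743, and Csf1 (ENSMUSG00000014599) at chr3:107741048-107760469 on the minus strand. Ccl1 has 3 annotated transcripts, with 11 exons at most and 3 at fewest.

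Promoters are shown for Cxcl2, Cxcl10, Ccl1 and Csf1, because all 4 hold a match to the NF-kB consensus in the window searched. These 4 members had more UMIs per cell in both lung samples than in both MLN samples, with over 20 cells in the lung samples together. Ccl3 and Ccl4 also had more, in 4 and 12 lung cells. Whether a match goes with the level in lung was not tested. The window is 200 bases long and lies upstream of the RefSeq start (GRCm38.p6, read 5′ to 3′ on the gene's strand). It leaves out the bases next to the start, which were not searched. Capitals mark the matches, which for Cxcl10 include GAAA followed after 2 bases by GAAA, the core of interferon-stimulated response elements.
Cxcl2, chr5:90903649-90903848 (+ strand): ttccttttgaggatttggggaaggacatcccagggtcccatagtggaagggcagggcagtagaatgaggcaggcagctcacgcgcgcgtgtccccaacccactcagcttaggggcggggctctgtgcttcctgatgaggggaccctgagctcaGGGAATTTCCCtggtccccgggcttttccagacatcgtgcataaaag
Cxcl10, chr5:92348940-92349139 (- strand): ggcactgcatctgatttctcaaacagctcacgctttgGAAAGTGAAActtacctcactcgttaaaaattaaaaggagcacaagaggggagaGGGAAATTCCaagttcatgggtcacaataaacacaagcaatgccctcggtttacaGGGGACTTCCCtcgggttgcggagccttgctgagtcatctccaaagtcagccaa
Ccl1, chr11:82179863-82180062 (- strand): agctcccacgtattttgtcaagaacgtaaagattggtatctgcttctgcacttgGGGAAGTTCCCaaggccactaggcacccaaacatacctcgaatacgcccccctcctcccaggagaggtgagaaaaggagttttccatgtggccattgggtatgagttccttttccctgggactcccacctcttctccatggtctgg
Csf1, chr3:107760520-107760719 (- strand): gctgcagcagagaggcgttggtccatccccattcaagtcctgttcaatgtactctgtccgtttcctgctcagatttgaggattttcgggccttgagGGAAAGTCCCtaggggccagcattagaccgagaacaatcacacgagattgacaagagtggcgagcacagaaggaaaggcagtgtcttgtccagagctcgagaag
Both strands of this window were searched in 32851 mouse promoters. The NF-kB consensus occurred in 1875 of them (5.71%) and the spaced GAAA pair in 790 (2.4%). The pair was found upstream of Cxcl10 alone among the members searched. The Ccl3 and Xcl1 windows held no match to either motif, and no sequence was at hand for Ccl4 and Ccl5. A match is a string of letters and was not measured as a binding site.

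Csf1 was the most widely detected member. It had 942 UMIs in 371 of 1082 cells of lung 1 (34.3%, 95% interval 31.5 to 37.2) and 440 UMIs in 153 of 416 cells of lung 2 (36.8%, 32.1 to 41.6). In MLN 1 it had 378 UMIs in 184 cells (7.47%, 6.47 to 8.58) and in MLN 2 113 UMIs in 57 cells (7.56%, 5.78 to 9.68). Both lung samples thus lay above both MLN samples, and mice of one organ were close to each other. As CPM the 4 values were 111, 157, 26.0 and 25.2, a pooled ratio of lung to MLN of 4.73. With every cell thinned to 2000 UMIs the shares were 16.8%, 21.8%, 2.86% and 4.04%, so the gap stayed when depth was made equal.

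In the second run Csf1 was found in 168 medLN 1 cells (8.16%), 118 medLN 2 cells (5.84%), 137 MLN 1 cells (6.88%) and 159 MLN 2 cells (7.93%) of the IL-4eGFP+ library, at 39.9, 36.0, 35.8 and 36.3 CPM. The node draining the lung and the node draining the gut overlapped in share. In the IL-4eGFP- library the shares were 0.877%, 1.34%, 0.667% and 0.923%, at 3.23 to 5.70 CPM. These lay below all IL-4eGFP+ samples at similar median depth (3268 to 3371 UMIs per cell against 3165.5 to 3666.5), which also places the Csf1 share of IL-4eGFP+ cells above that of a CD4+ population outside the reporter gate.

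Ccl1, the Ccr8 ligand, was concentrated in fewer cells. Lung 1 held 1830 UMIs in 145 cells (13.4%, 11.4 to 15.6) and lung 2 282 UMIs in 46 cells (11.1%, 8.21 to 14.5). MLN 1 held 176 UMIs in 15 cells (0.609%), of which 1 cell carried 113, and MLN 2 held 43 UMIs in 2 cells (0.265%), of which 1 carried 42. Levels were 215 and 101 CPM in lung and 12.1 and 9.60 CPM in MLN, a pooled ratio of 16.2. In the IL-4eGFP+ nodes of the second run, 21 medLN 1, 14 medLN 2, 15 MLN 1 and 17 MLN 2 cells carried Ccl1, at 34.0, 20.7, 14.3 and 30.2 CPM, with medLN and MLN overlapping. Only 2 cells of the IL-4eGFP- library had any, 1 UMI in a medLN 1 cell and 189 UMIs in a single MLN 2 cell.

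Cxcl2, which attracts neutrophils, had a higher level in lung 1 than in lung 2. Lung 1 held 1987 UMIs in 108 cells (9.98%, 8.26 to 11.9) and lung 2 121 UMIs in 11 cells (2.64%, 1.33 to 4.68), or 234 and 43.2 CPM. Neither first-run MLN sample had a UMI, 0 of 2462 and 0 of 754 cells, where 3 such cells would be shares with a UMI of 0.122% and 0.398% and the exact upper limits are 0.150% and 0.488%. Taking 3 UMIs over both MLN samples as the floor, Cxcl2 was at least 1180-fold higher in the pooled lung samples, a bound that rests on lung 1 and is 274-fold for lung 2 alone. The 2 highest cells of lung 1 had 216 and 208 UMIs, together 21.3% of its Cxcl2, and the highest of lung 2 had 40, or 33.1%. In the second run 1 IL-4eGFP+ cell and 4 IL-4eGFP- cells had a Cxcl2 UMI.

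Cxcl10, the interferon-inducible Cxcr3 ligand, had 219 UMIs in 64 cells of lung 1 (5.91%) and 70 UMIs in 22 cells of lung 2 (5.29%). In MLN 1 it had 61 UMIs in 20 cells (0.812%) and in MLN 2 18 UMIs in 7 cells (0.928%). The lung levels of 25.7 and 25.0 CPM stood close together and above the MLN levels of 4.20 and 4.02 CPM, a pooled ratio of 6.14. In the IL-4eGFP+ node samples 11, 6, 24 and 10 cells carried Cxcl10. Of 14 listed interferon response genes tested by edgeR between lung and MLN, 0 were called higher in lung and 10 lower. Their median log2 difference was -1.62. Over all 10587 genes tested, 1481 were called lower in lung. How the Cxcl10 level relates to these genes was not tested.

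Ccl5 and Xcl1 did not separate by organ. In lung 1, Ccl5 had 122 UMIs in 23 cells (2.13%), and in lung 2 it had 184 in 20 (4.81%). The MLN samples had 261 UMIs in 38 cells (1.54%) and 134 in 19 (2.52%). Its lung values of 14.3 and 65.8 CPM straddled the MLN values of 18.0 and 29.9 CPM. Xcl1 had 9, 16, 31 and 23 UMIs in 3, 6, 20 and 12 cells, and its lung levels of 1.06 and 5.72 CPM lay on either side of the MLN levels of 2.14 and 5.14 CPM. In the second run Ccl5 was found in 18, 28, 37 and 30 cells of the IL-4eGFP+ library and in 21, 31, 11 and 19 cells of the IL-4eGFP- library, so that the gates overlapped.

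The differences fitted by edgeR between organs and gates are given as sizes only, since the members were selected on these levels. The fitted lung to MLN log2 differences were 2.48 (SE 0.15) for Csf1, 2.75 (SE 0.20) for Cxcl10 and 4.00 (SE 0.36) for Ccl1. Ccl1 moved with single cells and animals, to 3.21 without lung replicate 1 and 4.45 without lung replicate 2. It moved to 5.52 when the highest cell of every member was left out of each sample. Between medLN and MLN the log2 differences of the 5 members fitted ran from -1.28 for Cxcl10 to 0.27 for Ccl1. Between gates, where 62.2% of all genes were called, Csf1 was 2.82 (SE 0.12) higher on the log2 scale in IL-4eGFP+ cells. Ccl1 was 1.98 higher, and 8.67 higher without the IL-4eGFP- MLN 2 sample whose single cell holds nearly all Ccl1 of that gate. Xcl1 had a log2 difference of -2.63, which became 0.36 without the same sample.

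**Figure D1:**
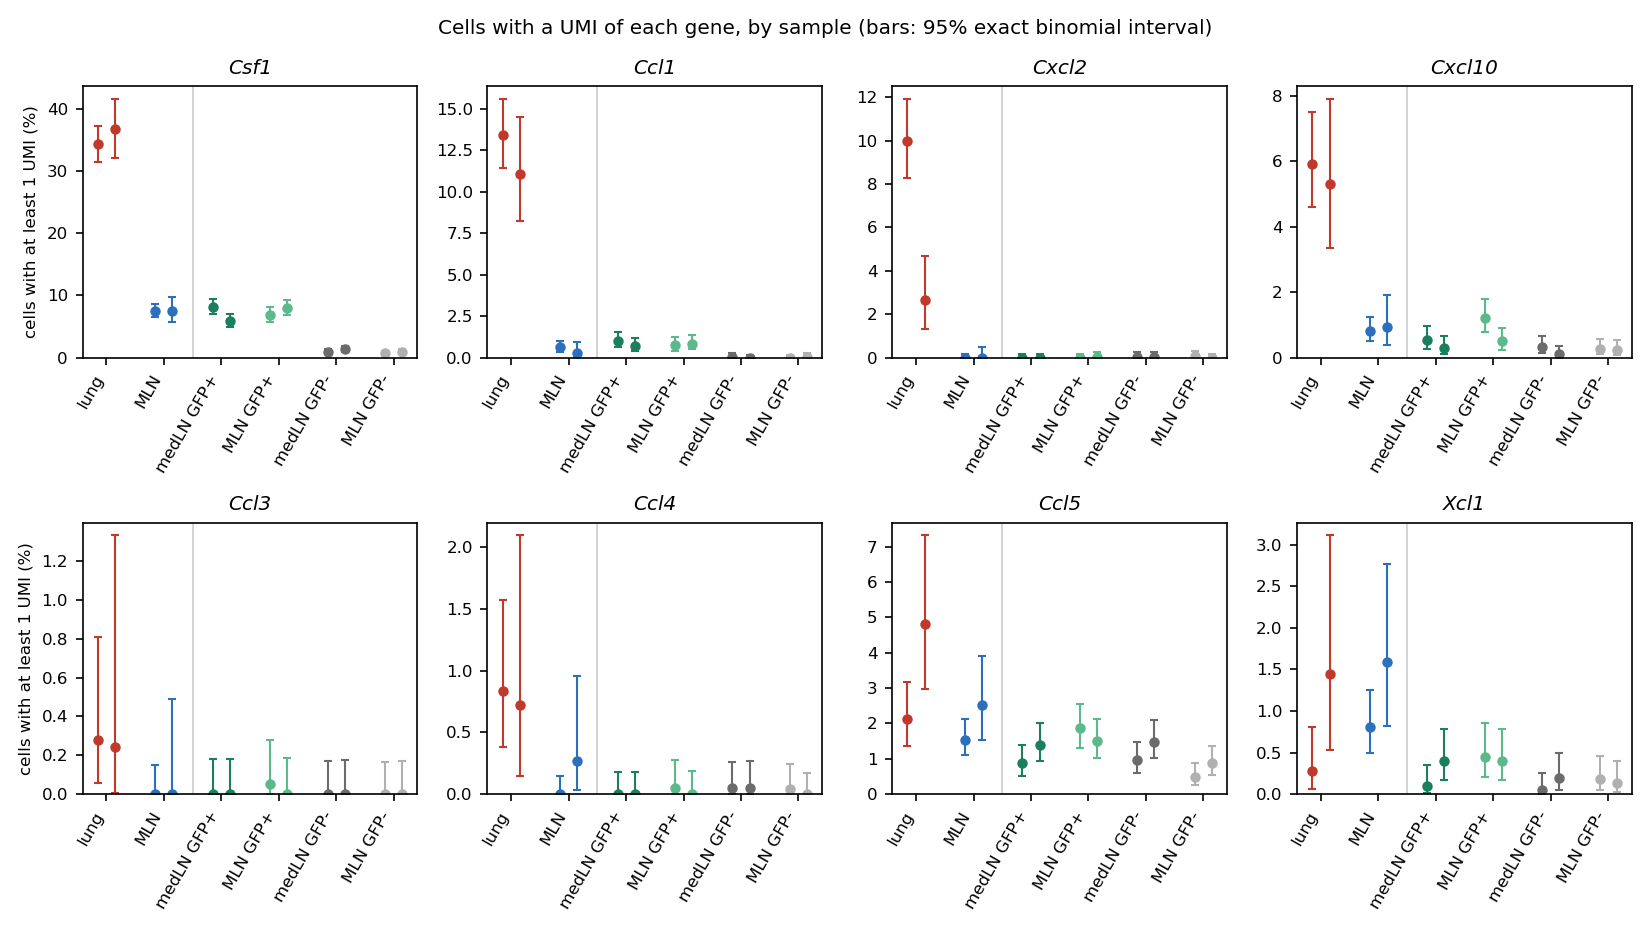
Share of cells with at least 1 UMI of each member (percent, linear axes that differ between panels) in the 4 first-run samples and the 8 node samples of the second run; points are samples and bars exact 95% intervals. Csf1 sits at 34.3% and 36.8% in lung, 7.47% and 7.56% in first-run MLN and at 1.34% or below in IL-4eGFP- nodes, whereas the lung and first-run MLN shares of Ccl5 and Xcl1 interleave.

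The members differed in how evenly their RNA was spread over cells. The 1% of lung cells with most UMIs of a gene held 16.6% and 14.5% of all Csf1 UMIs in lung 1 and lung 2, but 66.0% and 67.0% of Ccl1, 56.0% and 78.5% of Cxcl2, 56.6% and 55.7% of Cxcl10 and 89.3% and 74.5% of Ccl5. The highest Csf1 cell had 22 UMIs in lung 1 and 21 in lung 2, whereas the highest Ccl1 cells had 321 and 67. Among lung 1 cells with the gene, the median was 2 UMIs for Csf1 and for Ccl1 and 6.5 for Cxcl2, and 47 cells carried 10 or more Cxcl2 UMIs against 13 for Csf1 and 30 for Ccl1.

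**Figure D2:**
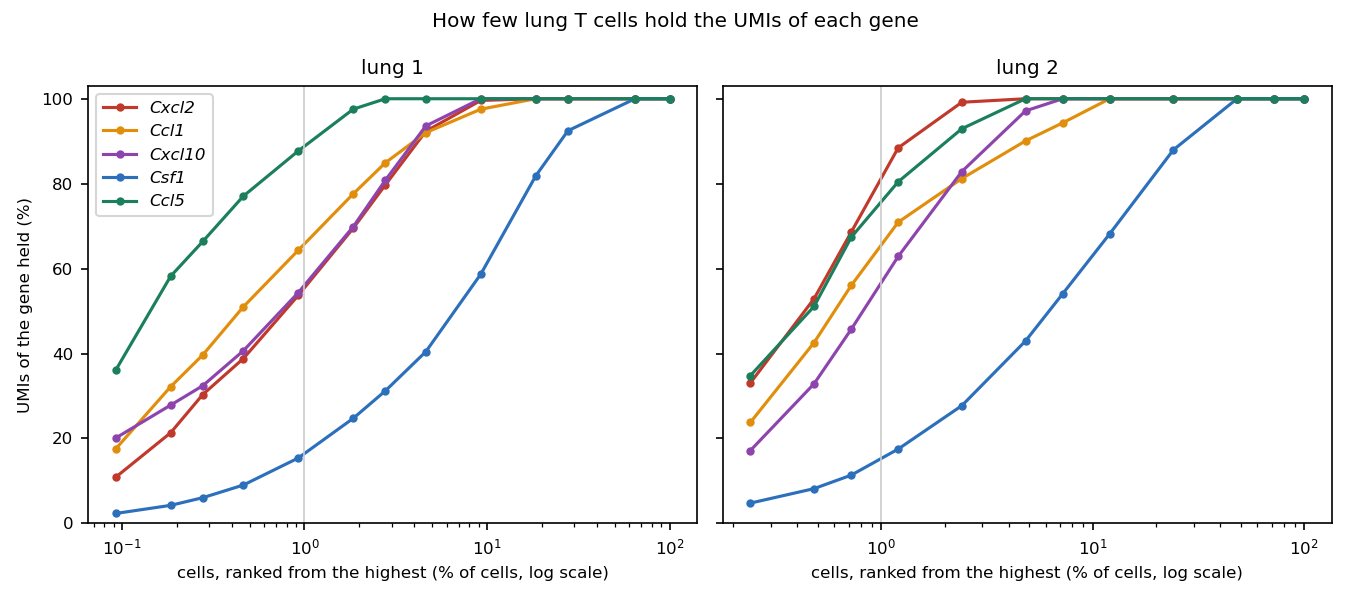
Cumulative share of a member's UMIs (percent) against the share of cells ranked from the highest (percent, log axis) in lung 1 and lung 2. The Csf1 curve rises slowest, with 16.6% and 14.5% of its UMIs in the top 1% of cells, against 66.0% and 67.0% for Ccl1.

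Ccl3 and Ccl4, a pair of inflammatory chemokines, went against the label of a T-cell product. Among TCR-bearing lung cells Ccl3 had 159 UMIs in 3 cells of lung 1 and 47 UMIs in 1 cell of lung 2, and Ccl4 296 UMIs in 9 cells and 28 UMIs in 3 cells. A single cell in each library carried nearly all of it. In lung 1 that cell had 155 Ccl3 and 279 Ccl4 UMIs among 13334 in total, with 102 UMIs of the 8-gene basophil and mast cell list. In lung 2 it had 47 Ccl3 and 24 Ccl4 UMIs among 18364, with 24 UMIs of that list. Without the highest cell of each sample the lung levels of Ccl3 were 0.471 and 0 CPM in place of 18.7 and 16.8, and those of Ccl4 2.00 and 1.44 CPM in place of 34.8 and 10.0. MLN 1 had no UMI of either gene and MLN 2 had 3 Ccl4 UMIs in 2 cells.

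Lung barcodes that passed the quality filters but lacked a paired TCR held far more. Of 523 such barcodes in lung 1, 59 carried Ccl3 or Ccl4, and of 208 in lung 2, 33 did. Ccl3 reached 6753 UMIs in 57 barcodes of lung 1 and 3500 in 32 of lung 2, and Ccl4 11290 UMIs in 55 and 5639 in 31. The corresponding TCR-less MLN barcodes held 18 Ccl3 UMIs and 10 Ccl4 UMIs in all. Among TCR-bearing lung cells of either sample, at most 0.832% had a UMI of Ccl3 or, counted apart, of Ccl4. The lung shares of Csf1, Ccl1, Cxcl2 and Cxcl10 lay above this in both samples. The part of free RNA in any of these shares was not tested.

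The TCR-less lung barcodes with Ccl3 or Ccl4 were set against the others by summing each side per library, where 33.2% of 5833 genes were called at the edgeR threshold. All 8 genes of the basophil and mast cell list were higher in them and all 5 of the T cell list lower. The 5 genes tested of the 11-gene myeloid list were called higher as well, among them the signalling adaptors Tyrobp (7.88) and Fcer1g (7.26). Lyz2, another of the 5, went opposite ways in lung 1 and lung 2. In lung 1 it stood at 50.2 CPM on the Ccl3 or Ccl4 side against 139.7 CPM on the other. In lung 2 it stood at 219.5 against 20.4 CPM. The summed level of the list was 5116 and 6059 CPM on the Ccl3 or Ccl4 side against 221 and 28.5 CPM on the other. Mcpt8, a basophil protease, had 183 and 100 UMIs on the Ccl3 or Ccl4 side and 0 on the other, which makes it at least 720-fold higher. Fcer1a and Ms4a2, chains of the IgE receptor, were at least 595-fold and 534-fold higher, the complement receptor C5ar1 at least 598-fold and Ifitm1, a membrane protein of antiviral defence, at least 6096-fold. Ccl1 and Sit1, a T-cell adaptor, were absent from that side and at least 31.2-fold and 14.8-fold lower, and the T-cell surface gene Cd5 had a log2 difference of -6.66. Other ligands moved along, with Ccl6 9.01 and Ccl9 8.63 higher on the log2 scale. Of the type 2 list, Il4 was 2.03 higher, whereas Il5, Calca and Areg were lower by -6.62, -4.87 and -2.81.

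These barcodes also held part of the Csf1 and Cxcl2 found outside the TCR-bearing cells. In lung 1 and lung 2 they carried 64.5% and 79.1% of the Csf1 UMIs of TCR-less barcodes, with Csf1 in 84.7% and 87.9% of them against 27.2% and 26.3% of the other TCR-less barcodes. They carried 57.0% and 79.0% of the Cxcl2 UMIs. Csf1 and Cxcl2 RNA was thus measured in both kinds of lung barcode, while Ccl1 had 0 UMIs in those with Ccl3 or Ccl4.

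**Figure D3:**
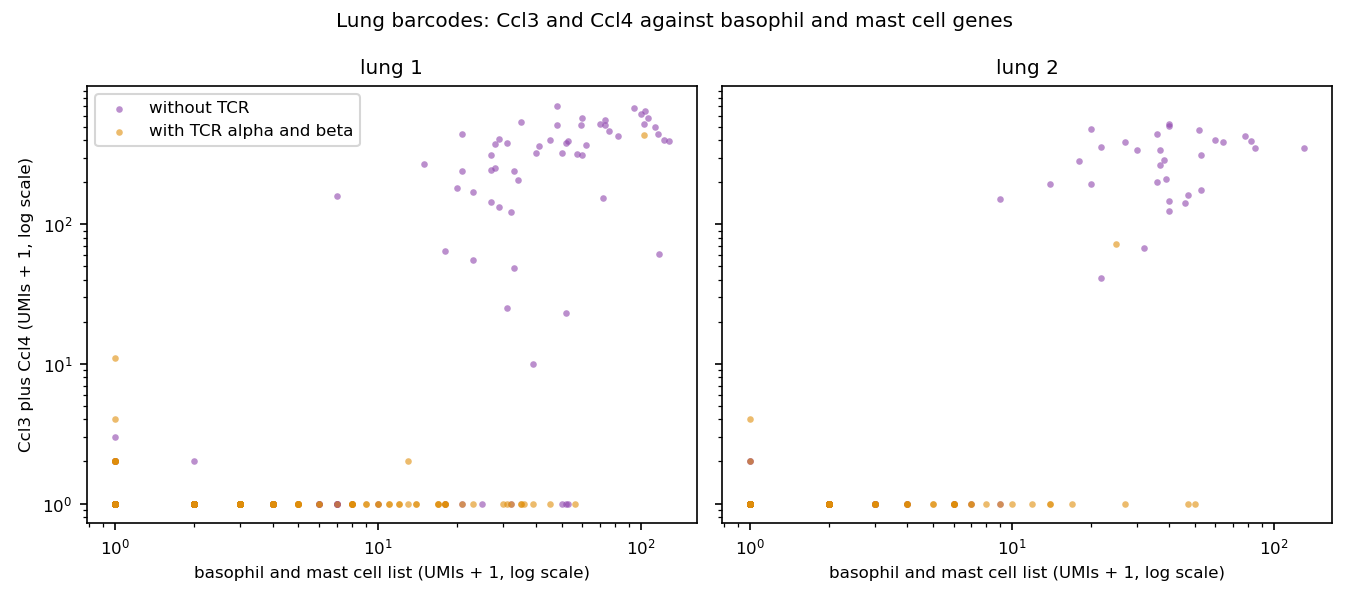
Each point is a lung barcode, with its UMIs of the basophil and mast cell list against its UMIs of Ccl3 plus Ccl4 (UMIs plus 1, log axes), coloured by whether it has a paired TCR. Nearly all of the 59 and 33 TCR-less barcodes with Ccl3 or Ccl4 lie to the upper right, 1 TCR-bearing cell per library lies with them, and TCR-bearing cells with list UMIs alone lie along the bottom.

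Cells with a Csf1 UMI were next compared with those without, within each sample. In lung, 3.05% of 9157 genes were called at the edgeR threshold, 158 higher and 121 lower in Csf1 cells. The strongest increases among well expressed genes were Ier3, an immediate early gene (2.09, SE 0.14, on the log2 scale), Hdc, which makes histamine (1.85), the antiviral membrane gene Ifitm3 (1.30), the inhibitory receptor Lag3 (1.22) and the granule gene Nkg7 (1.20). The strongest decreases were Tcf7, a factor of naive and memory T cells (-1.88, SE 0.12), Klf2, which governs exit from tissue (-1.67), and its target S1pr1, the egress receptor (-1.61). Of 34 listed activation genes 9 rose and none fell (median 0.17 against 0.01 over all genes), among them Egr3 (1.30), Il2ra (0.64) and Cd69 (0.42). The 9-gene type 2 list holds Il3, Il10, Areg and Calca beside Il4, Il5 and Il13. Of its 7 genes tested, Il10 (1.52), Areg (0.79) and Calca (0.50) rose and Il5 fell (-0.51). Il4 (0.43), Il13 (0.25) and Il3 (0.95) were not called. Of 6 Th1 and cytotoxic genes tested, Nkg7 rose and Ifng fell (-2.04, SE 0.31). The basophil and mast cell list stood at 234.7 and 213 CPM in Csf1 cells against 62.0 and 60.4 CPM. Its 2 tested genes Hdc and Cd200r3 (1.35) were both higher. The myeloid list stood at 22.9 and 33.8 CPM against 3.23 and 2.75 CPM. Most of its UMIs in Csf1 cells came from the single cell per library with most Ccl3. That cell had 57 myeloid list UMIs and 7 Csf1 UMIs in lung 1, and 31 and 13 in lung 2. Ccl6 (5.52) and Ccl9 (7.09) were also called, but with the Ccl3 and Ccl4 difference they stand beside the 2 cells with basophil list UMIs described above. Of the members, Ccl1 was 1.03 higher, and Cxcl10 (-1.84) and Ccl5 (-3.00) were lower. Cxcl2 was 0.76 higher, and 0.54 higher without the cells that carry a basophil, myeloid or B cell marker, where it was not called. DESeq2 called 38 genes, and edgeR without the sample block 20.

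In first-run MLN, 4.19% of 9483 genes were called, 271 higher and 126 lower in Csf1 cells. Plac8 (2.62, SE 0.10), Lgals7, which encodes a galectin (2.48), the leukotriene receptor Cysltr1 (2.40), granzyme B, Gzmb (2.29), and Ifitm2 (2.12) rose most. The cytoskeletal gene Smtn (-1.27), the cytokine receptor chain Il6st (-1.20) and the actin crosslinker Actn1 (-1.10) fell most. Activation genes rose in 12 of 34 cases and fell in none, with Bhlhe40 (1.98), Egr3 (1.80) and Nr4a1 (1.46) among them, at a median of 0.44. Of 5 genes tested of the type 2 list, 3 rose, Il10 (3.52), Areg (3.28) and Il4 (0.53). Il13 (-0.78) was not called. The 1 gene tested of the basophil and mast cell list was called higher as well (2.88). Of the members, Ccl5 was lower (-3.64, SE 0.52), Cxcl10 stood at -0.30 (SE 0.75), and Ccl1 stood at 0.32 (SE 0.36) and was higher in 1 of 2 samples. The highest Ccl1 cells of MLN 1 and MLN 2, with 113 and 42 Ccl1 UMIs, had no Csf1 UMI. DESeq2 called 52 genes, and edgeR without the sample block 90.

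In the IL-4eGFP+ node cells, with 4 samples of 2 mice, 9.06% of 10278 genes were called, 612 higher and 319 lower. Hdc (5.52, SE 0.20), Ccl1 (5.18, SE 0.43) and Areg, an epidermal growth factor receptor ligand (4.24, SE 0.27), rose in 4 of 4 samples, and Il13 (3.35) and the enkephalin gene Penk (3.34) in 3 of 4. Rflnb (-1.65), Actn1 (-1.39) and Nsg2 (-1.33) fell in 4 of 4. Activation genes rose in 24 of 33 (median 0.81). All 5 genes tested of the type 2 list rose, Il10 by 4.39, Areg by 4.24, Il5 by 3.80, Il13 by 3.35 and Il4 by 1.10. The cytotoxic genes Nkg7 (3.20), Gzmb (2.72), Fasl (2.00) and Gzma (1.31) rose as well, and so did the receptor genes Ccr8 (2.59) and Ccr1 (2.29). Csf1 cells of the nodes were deeper than the others, with median UMIs in MLN 1 of 4268 against 3274, and in depth-matched cells 544 genes were called and all 8 leading genes were called in the same direction. Markers of other cells moved too. Hdc is on the basophil and mast cell list, whose other tested gene Cd200r3 also rose (3.86), and the summed level of that list was 105 to 347 CPM in Csf1 cells against 4.54 to 8.59 CPM in the others. Of the list, Mcpt8, Cd200r3 and Hdc had UMIs in the Csf1 cells of all 4 samples, and Cpa3 in those of medLN 1 and medLN 2 only. Fcer1a, Ms4a2, Gata2 and Prss34 were at 0 in the Csf1 cells of all 4 samples. Lower in Csf1 cells were 3 of 5 myeloid genes tested, with the list at 7.10 to 24.0 CPM against 37.7 to 109.7, 3 of 3 dendritic cell genes, at 50.2 to 137 CPM against 214 to 383, and 2 of 3 B cell genes, at 1.52 to 19.5 CPM against 24.6 to 45.9. Without the cells that carry a basophil, myeloid or B cell marker, which also removes cells with Hdc, 600 genes were called, and Ccl1 (5.43) and Areg (5.01) were called higher as before.

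Cells with Ccl1 carried Csf1 more often than the other cells did. Of Ccl1 cells, 47.6% in lung 1 and 45.7% in lung 2 also had Csf1, against 32.2% and 35.7% of the other cells. In the IL-4eGFP+ nodes 18 of 21, 9 of 14, 10 of 15 and 7 of 17 Ccl1 cells had Csf1, against 5.43% to 7.65% of cells without Ccl1. These node Ccl1 cells were deeper, with medians of 8606, 7154, 9760 and 10851 UMIs against 3151 to 3644. Against cells without Ccl1 that were nearest in total UMIs, a comparison added after the data were seen, the Csf1 shares of the latter were 11.9%, 7.86%, 11.3% and 5.88% in the nodes, 30.3% in lung 1 and 34.8% in lung 2. The Ccl1 cells lay above these in all 4 node samples and both lung samples. In first-run MLN, 8 of 15 Ccl1 cells of MLN 1 had Csf1, against 8.67% of the cells nearest in depth. In MLN 2 it was 1 of 2, against 25.0%. In lung, 25 of 108 Cxcl2 cells of mouse 1 (23.1%) carried Ccl1 against 12.3% of the others, or 28 of the 216 nearest in depth, and 2 of 11 in mouse 2 against 44 of 405, or 4 of 99.

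Lung cells with Ccl1 were set apart by 2.96% of 8824 genes, 167 higher and 94 lower. Cd83, an activation antigen (2.67, SE 0.20), Il5, the eosinophil growth factor (1.92, SE 0.15), Rgs16, a regulator of G protein signalling (1.83), the invariant chain Cd74 (1.72) and Hdc (1.72) rose most, and Ccr7, which guides cells to lymph nodes (-2.62, SE 0.24), the myosin gene Myo6 (-2.29) and Klf2 (-1.95) fell most. Il5 rose from 45.2 to 160.2 CPM and Ccr7 fell from 92.3 to 15.3 CPM, in both mice. Of 7 genes tested of the type 2 list, 5 rose and none fell: Il3 (2.20), Il5 (1.92), Il13 (1.70), Il4 (1.14) and Areg (0.61). Activation genes rose in 17 of 34 cases and Myc alone fell (-1.22), with Egr3 (1.68), Tnfsf11 (1.17) and Nr4a1 (0.76) among the rising, at a median of 0.45. The receptor of Ccl1, Ccr8, was 0.66 higher (SE 0.11), Nkg7 1.36 higher and Gzmb lower (-4.93). Among the members, Csf1 was 0.94 higher (SE 0.12) and Ccl5 lower (-2.79), while Cxcl2 at 0.41 was not called. DESeq2 called 54 genes, and edgeR without the sample block 19.

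Lung cells with Cxcl2 were compared with a lower minimum of cells, since lung 2 held 11 of them; this choice was made after the counts were seen. The edgeR test called 0.93% of 8706 genes, 37 higher and 44 lower. Ccl1 (2.25, SE 0.19), Areg (1.62, SE 0.16), the growth factor binding protein Igfbp7 (1.51), the inhibitory lectin receptor Klrg1 (1.46) and Il2 (1.42) rose most, and Tcf7 (-1.77), the histone gene Hist1h2ap (-1.52) and the replication gene Pclaf (-1.37) fell most. Areg rose from 864.3 to 2485 CPM. The Ccl1 difference leans on single cells. The Cxcl2 cells of lung 1 include cells with 321 and 137 Ccl1 UMIs, and those of lung 2 a cell with 38. Of 7 genes tested of the type 2 list, Areg, Calca (1.28), Il13 (1.24) and Il5 (1.22) rose and none fell. Csf1 was 0.81 higher. Of 5 Th1 and cytotoxic genes tested, Ifng alone was called and fell (-3.59, SE 1.02). In depth-matched cells 11 genes were called, and Ccl1, Areg, Igfbp7 and Tcf7 were called in the same direction while Klrg1, Il2, Hist1h2ap and Pclaf were not called. DESeq2 called 2 genes.

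In lung cells with Cxcl10 the test called 3.72% of 8565 genes, 246 higher and 73 lower. The 5 leading genes were Prim1, a primase subunit (2.10), Ccna2, cyclin A2 (2.07), Pclaf, a partner of PCNA (2.00), Rrm2, a ribonucleotide reductase subunit (1.97), and Clspn, a replication checkpoint gene (1.93). Ccl1 (-2.33, SE 0.24), Igfbp7 (-1.70) and Csf1 (-1.58) were lowest. Cxcl10 cells were deeper, with a median of 8946 UMIs against 6829.5 in lung 1 and 6856 against 5747.5 in lung 2. In depth-matched cells only Ccl1 was called, at -4.24, and Prim1, Ccna2, Pclaf, Rrm2 and Clspn stood at 1.19, 1.60, 0.95, 0.89 and 0.78 without passing the threshold. Of 7 genes tested of the type 2 list, Il5 rose (1.00) and Il10 (-3.93), Il13 (-1.15) and Calca (-1.09) fell. Of 6 Th1 and cytotoxic genes tested, Gzma (3.12) and Gzmb (1.61) rose and Nkg7 fell (-1.13). Of 12 interferon response genes tested only Ifit1 was called. In MLN the Cxcl10 cells carried more of the 11-gene myeloid list, 961 CPM against 20.5 in MLN 1 and 380.0 against 32.7 in MLN 2, with 6 and 5 of the 11 genes detected; in lung they had 1.45 and 0 CPM of it. Its part in the Cxcl10 level was not tested.

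**Figure D4:**
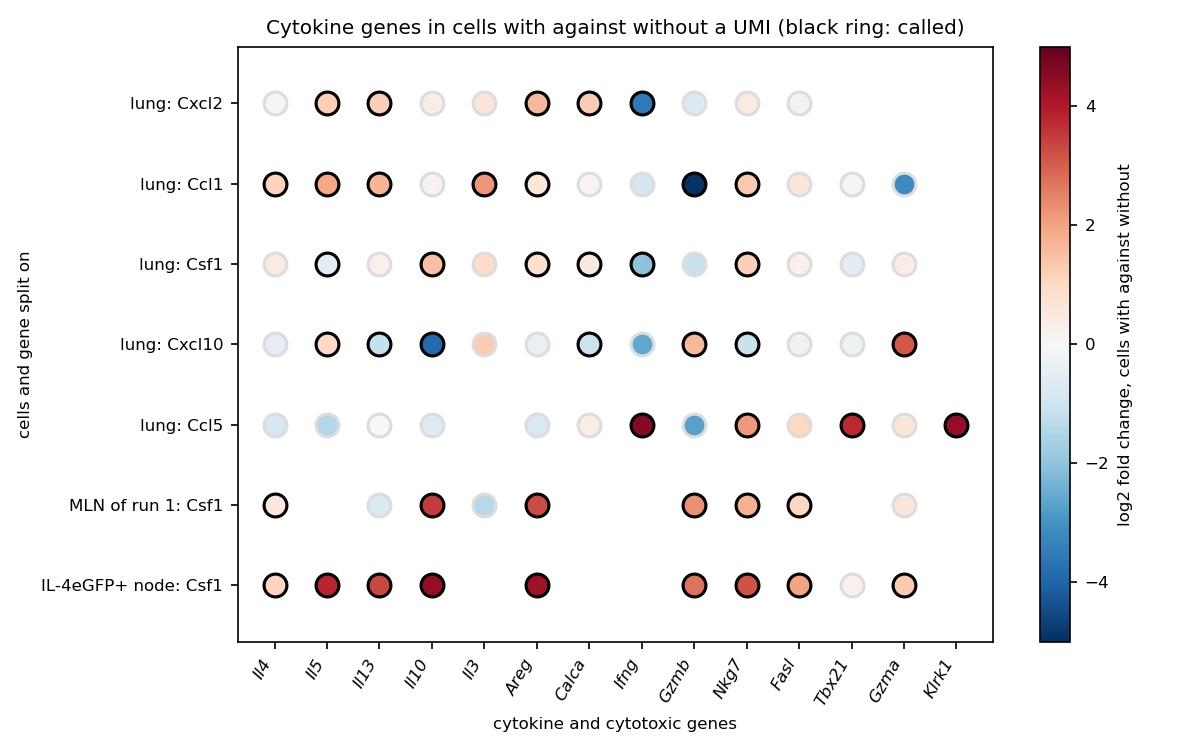
Log2 fold change (colour scale) of cytokine and cytotoxic genes, in columns, between cells with and without a UMI of the gene that names the row. Red is higher and blue lower in cells with it, and a black ring marks an adjusted p under 0.05. An empty place is a gene not tested, or one at 0 in the cells with or in the cells without. Il5 and Il13 are red in the lung Ccl1 and Cxcl2 rows, Ifng and Tbx21 in the lung Ccl5 row, and Il10 and Areg in all 3 Csf1 rows.

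In lung the Ccl5 comparison called 0.549% of 8381 genes, 34 higher and 12 lower. Ifng, the hallmark Th1 cytokine (4.55, SE 0.35), Cxcr3, a Th1 chemokine receptor (3.81, SE 0.38), Tbx21, which encodes T-bet (3.79, SE 0.40), the protease gene Mmp9 (2.44) and Nkg7 (2.16) rose most. The lysosomal protease gene Lgmn (-1.77), the interleukin 33 receptor chain Il1rl1 (-1.34) and the tetraspanin Tspan13 (-1.22) fell most. Of 7 Th1 and cytotoxic genes tested, 4 rose and none fell, the 3 named and Klrk1 (4.38). Zbtb16, which encodes the NKT cell factor PLZF, was 4.59 higher and Xcl1 6.43 higher. With 23 and 20 Ccl5 cells the depth-matched comparison called 0 genes by edgeR, with 131 at an unadjusted p under 0.05, and DESeq2 on all cells called 13; Ifng and Tbx21 stood at 5.58 and 3.53 in depth-matched cells.

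The TCR, which played no role in the choice of genes, was read in the same cells. Invariant NKT cells use an alpha chain of TRAV11 joined to TRAJ18, and this chain was carried by 0.277% (lung 1) and 1.92% (lung 2) of lung cells. In MLN it was carried by 1.83% (MLN 1) and 2.65% (MLN 2). Among Xcl1 cells it was present in 2 of 3 and 4 of 6 in lung and 13 of 20 and 11 of 12 in MLN, and among Ccl5 cells in 2 of 23, 6 of 20, 21 of 38 and 12 of 19. Both genes exceeded the share over all cells in 4 of 4 samples. Among Csf1 cells the chain was found in 0 of 371, 1 of 153, 0 of 184 and 0 of 57. Xcl1 and Ccl5 also shared cells, with Ccl5 in 2 of 3, 5 of 6, 17 of 20 and 10 of 12 Xcl1 cells against 0.860% to 3.66% of the others. In the IL-4eGFP+ nodes, where no TCR was read, Ccl5 was found in 1 of 2, 3 of 8, 7 of 9 and 6 of 8 Xcl1 cells.

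**Figure D5:**
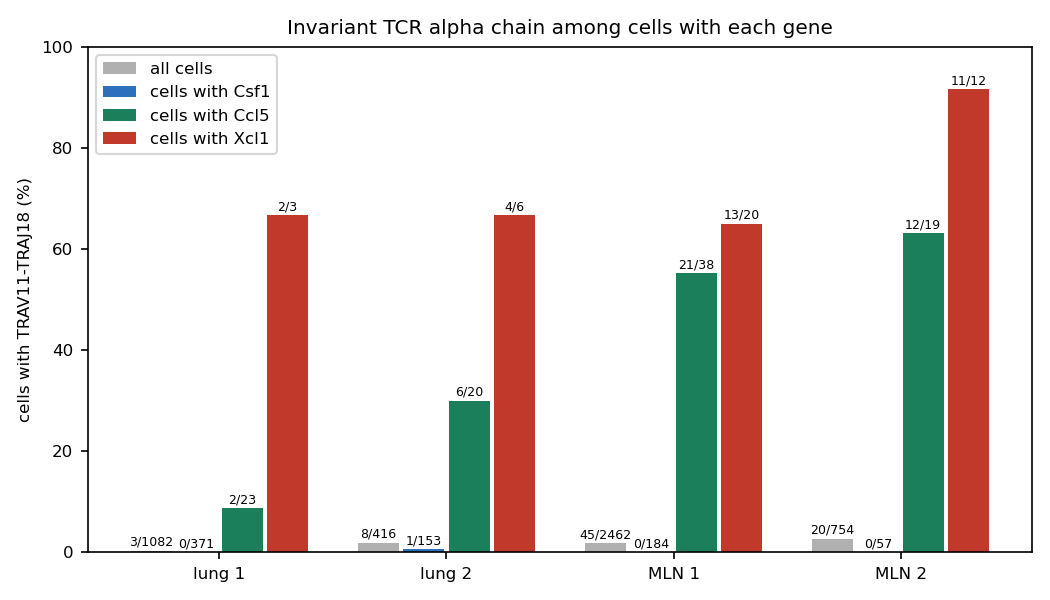
Percent of cells with the TRAV11-TRAJ18 alpha chain among all cells and among cells with a UMI of Csf1, Ccl5 or Xcl1, per first-run sample, with the counts above the bars. Xcl1 cells reach 65.0% in MLN 1 and 91.7% in MLN 2 and Ccl5 cells 55.3% and 63.2%, against 1.83% and 2.65% of all cells.

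Clonal expansion was compared next. Cells were counted that shared their TCR with another cell of the same mouse, in lung or MLN. In lung 1 these were 37.7% of all cells, against 44.1% of Ccl1 cells, 41.2% of Csf1 cells and 35.2% of Cxcl2 cells. In lung 2 the shares were 21.2% of all cells, 32.6% of Ccl1 cells, 22.9% of Csf1 cells and 27.3% of Cxcl2 cells. The Csf1 share lay above that of all cells in MLN 1 (33.7% against 29.7%) and below it in MLN 2 (5 of 57 cells against 98 of 754). These shares were not tested, and the Ccl1 and Cxcl2 shares of lung 2 rest on 15 of 46 and 3 of 11 cells.

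The receptors of these ligands were measured in the same T cells. Ccr8, the Ccl1 receptor, had 1531 UMIs in 412 cells of lung 1 and 405 in 141 of lung 2, against 33 in 13 cells and 17 in 9 cells of MLN. Between lung and MLN, where 17.0% of 10587 genes were called higher in lung by edgeR, the receptor genes Ccr8 (6.05) and Ccr1 (3.99) rose in lung. Csf1r, Cxcr2 and Xcr1 were nearly silent, with Csf1r in 1 and 0 lung cells and 5 and 6 MLN cells, so the T cells that carried Csf1 and Cxcl2 RNA carried little for the receptors of these factors. Between medLN and MLN, where 1.28% of genes were called, the receptor gene Ccr3 was called (2.84 higher in medLN). Of the 34 other chemokine and colony stimulating factor genes listed, 6 could be tested between lung and MLN, and Ccl6 (2.87) and Ccl9 rose, both carried in lung by 1 to 4 cells. In the Ccl1 cells of lung, Csf2, which encodes GM-CSF, rose (1.69), as did Cxcl3 (2.83, in 1 of 2 samples).

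Genes whose counts followed those of a member across single cells were ranked by the mean over samples of Pearson's r, as a description. In lung Ccl1 ran most closely with Il13 (mean r 0.23 over 2 samples), Gm43042 (0.22) and Angptl2 (0.22). Cxcl10 there ran with Nsdhl and Tk1 (both 0.16), and Csf1 with Ccr2, a chemokine receptor of effector cells (0.28). In first-run MLN Ccl5 ran with Ctsw (0.65), Cxcr3 (0.48) and Nkg7 (0.47) and Csf1 with Plac8 (0.25). Over the 4 IL-4eGFP+ node samples Ccl1 ran with Havcr2, which encodes Tim-3 (0.29), Il13 (0.29) and Il5 (0.24), Csf1 with Plac8 and Hdc (both 0.28), and Cxcl10 with the interferon-inducible genes Ifit3b (0.17) and Iigp1 (0.17). For Ccl1 the samples ranged from 0.11 to 0.44 with Havcr2, 0.13 to 0.47 with Il13 and 0.05 to 0.52 with Il5. The cells of a sample share library and depth, and most of these coefficients are small.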

How the data were processed

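Single-cell RNA and TCR libraries were made with the 10x Genomics platform from sorted CD4+ cells. The authors deposited UMI counts per gene and cell, made with Cell Ranger (versions 2.1.1 and 3.0.1 for the lung and MLN libraries, 6.1.2 for the second run, per the labels) on mm10, with TCR contig tables, and hashtag counts for the second run. First-run libraries were sequenced in 2 runs that the authors combined. The deposited TCR contig tables, used for the chain and clone of a cell, carry no level used here.

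Barcodes were kept that had more than 500 UMIs and more than 500 detected genes, a mitochondrial share below 7% and log10 genes per log10 UMIs above 0.8. First-run cells also needed a productive alpha and beta chain. Hashtags were assigned with HTODemux (Seurat 5.3.0) and doublets and negatives removed. No other doublet caller was run; leaving out cells with extra TCR chains is an alternative. A sample name with a number gives the mouse. Counts were summed per sample, TCR genes left out, and tested with edgeR 4.0.16 in R 4.3.3 (filterByExpr, TMM, quasi-likelihood, Benjamini-Hochberg over all genes tested, threshold 0.05), with organ as a covariate between gates. Cells with and without a UMI of a member were summed separately per sample and tested with the sample as block, where every sample had at least 20 such cells. Both sums come from the same suspension, and 2 animals stand behind each test. Log2 differences are those of the fit.

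Named are all 8 members, in each such comparison the 5 highest and 3 lowest called genes with at least 50 CPM, up to 6 called genes per gene list, and up to 3 genes of like pattern with a mean r of at least 0.15. The members, lists and tests were chosen with earlier results of these data known. Same-numbered lung and MLN samples come from one mouse, as do medLN and MLN samples; the correlation of their deviations from the group means was 0.055 and 0.13 over genes, and the paired fit is an alternative. Alternatives were DESeq2 1.42.0, its size factors, no filter, leaving out samples, thinning to 2000 UMIs, depth-matched cells, a minimum of 2 UMIs, and leaving out cells with a UMI of a basophil, myeloid or B cell marker, which also leaves out T cells with Hdc. The scripts were tested on simulated counts. One gene of the receptor list is not reported here.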

Additional observations from a re-analysis of the deposited data

Results flagged for a closer look

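Over 16 groups of 4 node samples, 7 member levels had 1 sample far from the other 3 by Dixon's gap ratio. Chance gives about 1 in 20 such groups for continuous values, which does not apply to most of these: in the 3 groups with Cxcl2, Ccl3 or Ccl4 in the IL-4eGFP+ library the other samples were at 0, and in the IL-4eGFP- library the 3 other samples had 1 Ccl4 UMI each, so that 1 UMI or 1 cell sets the ratio, as 1 cell also does for Ccl1 and Xcl1. In the IL-4eGFP+ library these were Cxcl2 at 0.0940 CPM in MLN 2, Ccl3 at 0.217 CPM and Ccl4 at 1.96 CPM in MLN 1, the Ccl3 and Ccl4 UMIs each from 1 cell, and Csf1 at 39.9 CPM in medLN 1. In the IL-4eGFP- library they were Ccl1 at 24.0 CPM and Xcl1 at 23.8 CPM in MLN 2, both the highest, and Ccl4 at 0 CPM in MLN 2, the lowest. The Ccl1 and Xcl1 values come from a single cell with 189 Ccl1 and 186 Xcl1 UMIs among 8650, which also carries 30 UMIs of the T cell list.

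Between cells with and without Csf1, 4 listed genes moved one way in every sample of one set and the opposite way in every sample of another; the difference was not tested. Jun stood at 0.51 on the log2 scale in lung, -0.22 in first-run MLN and 1.45 in IL-4eGFP+ nodes. Fcer1g stood at 7.53 in lung and -0.70 in first-run MLN, and Tyrobp at 5.45 in lung and -2.38 in IL-4eGFP+ nodes, where the lung values stand beside the 2 lung cells with basophil list UMIs. Cd74 stood at 0.67 in lung, 1.25 in first-run MLN and -1.22 in IL-4eGFP+ nodes.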

How the results depend on the processing

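With mouse as a replicate block, 3883 genes were called between lung and MLN (3284 without), 191 between medLN and MLN (144), 7270 between gates (7176) and 44 in the interaction (18); leaving out samples gave 1918 to 3673, 13 to 166 and 6730 to 6930 for the first 3. DESeq2 called 1833 between lung and MLN, and no filter left 47 between medLN and MLN. Without the sample block, called genes numbered 19 for lung Ccl1 cells, 11 for Ccl5, 20 for Csf1, 84 for Cxcl10, 7 for Cxcl2 and 90 for MLN Csf1. DESeq2 called 54, 13, 38, 32, 2 and 52 in that order, 693 for Ccl3 or Ccl4 barcodes and 599 for node Csf1. Depth matching gave 0 for lung Ccl5 (131 at an unadjusted p under 0.05), 1 for Cxcl10, 11 for Cxcl2, 121 for MLN Csf1, 1179 for Ccl3 or Ccl4 and 544 for node Csf1. A minimum of 2 UMIs gave 157 for lung Ccl1, 24 for Ccl5, 13 for Cxcl10 and 48 for Cxcl2. No filter gave 94 for lung Ccl5 and 467 for lung Csf1. Leaving out cells with markers of other cells gave 14 for lung Ccl5, 218 for MLN Csf1 and 600 for node Csf1. Node Csf1 gave 694 to 772 without a sample. Reversed were Xcl1 between gates (-3.41 to 0.36 over samples left out, 0.36 without IL-4eGFP- MLN replicate 2), Cxcl3 in lung Csf1 cells (-2.02 at 2 UMIs), Egr1 in lung Cxcl10 cells (0.52 with depth matching), Gzmb there (-0.91 with DESeq2), Lyz2 in Ccl3 or Ccl4 barcodes (-9.54 at 2 UMIs) and Cd74 in node Csf1 cells (0.52 without marker cells). The cause of these changes was not tested. Among named genes, depth matching kept the call of 31 of 33 for lung Csf1, 24 of 27 for lung Ccl1 and 28 of 28 for node Csf1, but 7 of 13 for Cxcl2, 1 of 16 for Cxcl10 and 2 of 9 for Ccl5. DESeq2 kept 14 of 33 for lung Csf1, 19 of 32 for lung Ccl1 and 33 of 39 for node Csf1. It kept 11 of 29 for MLN Csf1, 3 of 19 for Cxcl2, 6 of 14 for Cxcl10 and 9 of 13 for Ccl5. Without the sample block 10 of 33, 12 of 33 and 32 of 39 were kept for lung Csf1, lung Ccl1 and node Csf1. For MLN Csf1, Cxcl2, Cxcl10 and Ccl5 these were 17 of 29, 5 of 19, 6 of 23 and 11 of 19. With 2 mice per group, the values of Xcl1, Ccl3 and Ccl4 rest on few TCR-bearing cells.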
